A study of Drosophila melanogaster with 23 samples.

Results

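Mitochondrial ribosomal protein genes are the nuclear genes whose FlyBase symbols begin with mRpL, named for the large subunit, or mRpS, named for the small subunit. The name table paired 73 such symbols with gene identifiers, and 71 of those identifiers were among the 17659 genes counted in Kc167 cells, 47 mRpL genes and 24 mRpS genes. The identifiers of mRpS5 and mRpS34 were not analysed here. The mitochondrial ribosome translates the few messages encoded by mitochondrial DNA, which specify subunits of the respiratory chain and of the ATP synthase. Its proteins are all made in the cytosol from nuclear genes and imported. Its RNAs come from mitochondrial DNA, so building the particle draws on both genomes. Some of its proteins have counterparts in the bacterial ribosome and others occur only in mitochondrial ribosomes.

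The measurements came from neuRNA-seq, in which RNA made during 1 h in the presence of 0.2 mM 5-ethynyl uridine (EU) is tagged with biotin, captured and sequenced, so that new transcripts rather than the standing RNA pool are read. Kc167 is a female Drosophila embryonic cell line, and all 23 libraries were made from it, in 3 experiments that each had its own mock-treated cells, transfected without interfering RNA. Reads were counted over whole genes, introns included, on the gene's own strand. Levels are given as CPM, read counts scaled to a common library size within an experiment, and a gene is called higher or lower where edgeR's quasi-likelihood test gave an adjusted p under 0.1 over all genes tested.

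Experiment 1 held 3 mock libraries, 3 libraries of AGO2 KD (an siRNA against AGO2, the Argonaute protein of the small interfering RNA pathway) and 3 of LaminB KD (dsRNA against LaminB, the B-type lamin of the nuclear lamina, whose gene is Lam). In experiment 2 there were 2 mock libraries, 2 of si5UTR (a different siRNA, against the AGO2 5'UTR), 2 of si5UTR+AGO2 (that siRNA with a construct for tagged wild type AGO2) and 2 of si5UTR+V966M (that siRNA with a construct for the catalytic mutant AGO2). Experiment 3 compared 3 mock libraries with 3 of Dcr-2 KD (dsRNA against Dcr-2, the Dicer that makes small interfering RNAs). The submitters describe the replicates as biological. In bulk libraries such as these, fewer cells of a kind and less RNA per cell cannot be told apart.

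The libraries held 5215481 to 15641835 reads in genes. The targeted genes were lower in the libraries named for them, with log2 changes of -0.47 for AGO2 in AGO2 KD (adjusted p = 0.000312), -1.63 for Lam in LaminB KD (adjusted p = 4.1e-09), -0.53 for Dcr-2 in Dcr-2 KD (adjusted p = 0.0592) and -0.91 for AGO2 in si5UTR (adjusted p = 4.9e-05). In LaminB KD AGO2 (0.34, adjusted p = 0.00237) and Dcr-2 (0.43, adjusted p = 0.000816) were called higher than in mock. Reads in AGO2 were above mock in si5UTR+AGO2 (0.59, adjusted p = 0.0185) and, without a call, in si5UTR+V966M (0.43, adjusted p = 0.108). Of 8 markers of haemocytes, the lineage that Kc167 cells resemble, srp (1839 to 2139 CPM), Hml (1289 to 2365 CPM) and Pxn (712 to 1107 CPM) were high in every mock library. The other 5 were low, at 20.2 to 32.7 CPM for Col4a1, 5.22 to 27.0 CPM for vkg, 2.34 to 9.54 CPM for eater, 0 to 4.80 CPM for Sr-CI and 0 to 1.41 CPM for NimC1. In experiment 1 the sum over the 8 markers ran from 4519 to 4941 CPM in mock, from 3951 to 4306 CPM in AGO2 KD and from 5075 to 5213 CPM in LaminB KD, and its part in the results below was not tested. Of the germ line genes, vas stayed under 1 CPM in every library and bam ran from 2.41 to 12.3 CPM. Of the fat body genes, Lsp2 and Fbp1 stayed under 1 CPM and Lsp1beta ran from 0 to 10.3 CPM. Of the neuronal genes, elav was present at 61.0 to 99.0 CPM, while nSyb ran from 0 to 4.81 CPM and Syt1 from 0 to 1.19 CPM. Of the muscle genes, Mhc ran from 1.46 to 18.1 CPM, Mlc2 from 0 to 3.32 CPM and bt from 0 to 2.96 CPM.

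Mitochondrial ribosomal protein genes are short genes with little intron sequence. Their median length was 909 bp (range 390 to 13391 bp) against 2154 bp for the 13757 protein-coding genes in the table, and 69 of the 71 were under 2 kb. The exceptions were mRpS30 (2242 bp) and mRpS9, whose 13391 bp gene holds 12098 bp of intron. The median intron content was 96 bp against 250 bp, and 8 of the genes had no intron. Their median GC content was 48.5% against 45.7%. They were spread over the genome, with 12 on 2L, 12 on 2R, 15 on 3L, 21 on 3R and 11 on X. For 51 of the 71 (71.8%) a coding gene on the opposite strand started within 500 bp, pointing away, whereas this held for 3439 of all coding genes (25.0%).

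Of the 71 genes, 69 passed the filter on low counts in every experiment. The exceptions, mRpL13 and mRpL53, had 0 reads in all 23 libraries. Each lies wholly inside another gene on its own strand, mRpL13 within CG10602 and mRpL53 at the same coordinates as CG33155, and a read there overlaps both genes, so no level can be given for either. The gene mRpS14 overlaps the end of CG32533 on its strand, and 41 of the genes overlap a gene on the opposite strand, which the stranded counting keeps apart.

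The transcripts were of middling abundance. In the mock libraries of experiment 1 the median over the 71 genes was 13.9 CPM, or a median of 151 reads per library, against 34.1 CPM over all tested genes. Here and per kilobase the 71 include mRpL13 and mRpL53 at 0, whereas the tested genes all passed the filter. Per kilobase of gene the order turned, with 15.5 CPM per kb for the mitochondrial ribosomal protein genes and 13.0 CPM per kb for all tested genes. On this per-length scale mRpS30, whose human counterpart sits in the large subunit despite its name, was highest in experiment 1 at 61.0 CPM per kb. It was followed by mRpL37 (33.1 CPM per kb), a protein found only in mitochondrial ribosomes, and mRpL15 (32.7 CPM per kb), which has a bacterial counterpart. The 2 last-named differed by less than their spread between libraries. The lowest levels were 5.08 CPM per kb for mRpL48, 5.20 for mRpS9, whose length is mostly intron, and 5.44 for mRpL34.

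The first comparison asked what AGO2 depletion did to new transcription of these genes. AGO2 KD left nearly all of them uncalled: 1 of 69 was higher (7.92% of all 8142 tested genes were) and 1 of 69 was lower (2.32% of all tested genes were). The gene that rose was mRpL30, for a large subunit protein with a bacterial counterpart. Its level was 25.8, 25.2 and 24.5 CPM in mock, against 28.9, 40.6 and 46.4 in AGO2 KD, so that the groups did not overlap but the AGO2 KD libraries spread widely. The fitted log2 change was 0.62 (SE 0.19, adjusted p = 0.0536). In LaminB KD mRpL30 was also above every mock library, at 44.9, 28.3 and 30.1 CPM, but was not called (log2 change 0.45, adjusted p = 0.1003). The gene that fell was mRpL38, found only in mitochondrial ribosomes. It stood at 25.9, 25.9 and 27.8 CPM in mock, against 20.1, 20.9 and 17.8 in AGO2 KD, again without overlap. Its log2 change was -0.44 (SE 0.15, adjusted p = 0.0969). Neither call was firm. For mRpL30 it was lost on leaving out any mock library or AGO2 KD 2 or 3, with adjusted p from 0.129 to 0.282, and for mRpL38 it was lost under DESeq2 (adjusted p = 0.120) and on leaving out any mock or AGO2 KD library.

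Over the 69 genes the median log2 change in AGO2 KD was -0.11, against -0.005 over all tested genes, and 47 of them had a negative value (68.1%, against 50.9% of all tested genes). The mRpL genes had a median of -0.11 and the mRpS genes -0.12. The groups did not overlap in 13 genes that were lower (18.8%, against 12.9% of all tested genes) and 4 that were higher (5.80%, against 15.7%).

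LaminB KD gave the clearest shift. Of the 69 genes, 21 were called lower (30.4%), where 12.5% of all tested genes were, and 1 was called higher, where 16.7% of all tested genes were. The median log2 change was -0.37 against -0.005 for all tested genes, and 60 of the 69 values were negative (87.0%, against 50.6%). In 31 genes all 3 LaminB KD libraries lay below all 3 mock libraries (44.9%, against 17.3% of all tested genes), and in 2 they lay above (2.90%, against 19.9%). LaminB KD and AGO2 KD were compared with the same mock libraries, so their values are given side by side and not counted as separate evidence.

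**Figure D1:**
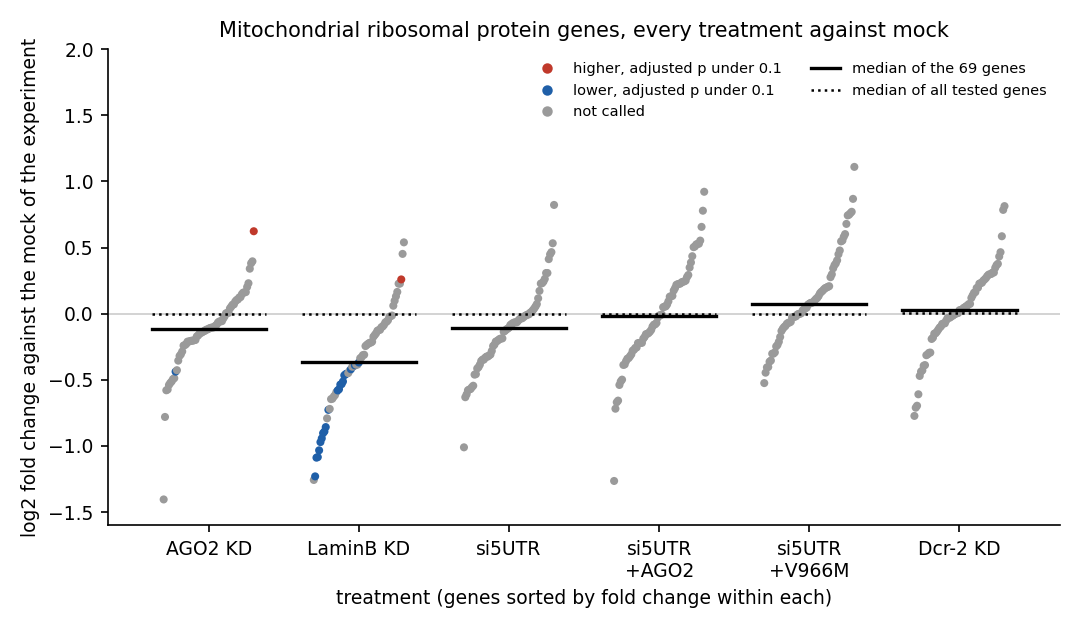
Log2 fold change of the 69 tested mitochondrial ribosomal protein genes in every treatment against the mock of its experiment, 1 point per gene, sorted within each treatment. Blue and red points passed an adjusted p under 0.1; the LaminB KD column holds 21 blue points and its median (solid line, -0.37) lies below that of all tested genes (dotted line), while the columns of experiments 2 and 3 hold no called gene.

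Among the genes called lower, the largest fitted fall was that of mRpL23, whose bacterial counterpart stands beside the exit of the peptide tunnel. It was read at 10.6, 18.9 and 9.07 CPM in mock, 10.5, 8.82 and 7.23 in AGO2 KD and 6.16, 4.12 and 6.06 CPM in LaminB KD. All LaminB KD values were below all mock values, and mock 2 stood high. The log2 change in LaminB KD was -1.23 (SE 0.31, adjusted p = 0.00998), and without mock 2 it was -0.86 (adjusted p = 0.0687), a smaller fall than that of mRpL42 (-1.10), mRpS2 (-1.09), mRpL14 (-1.01) or mRpL18 (-0.96) in the same fit. These levels rested on 34 to 55 reads per LaminB KD library and 89 to 179 per mock library.

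The next was mRpL14, which has a bacterial counterpart at the interface between the subunits. Its levels were 6.94, 8.87 and 7.95 CPM in mock, 3.39, 7.32 and 5.12 in AGO2 KD and 4.03, 3.51 and 3.59 CPM in LaminB KD. LaminB KD lay wholly below mock, and AGO2 KD ran from below the LaminB KD values up to the mock values. The log2 change in LaminB KD was -1.09 (SE 0.33, adjusted p = 0.0292).

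For mRpS2, a small subunit protein with a bacterial counterpart, the mock libraries were nearly identical at 11.7, 11.7 and 11.6 CPM. AGO2 KD gave 11, 10.8 and 8.51 CPM and LaminB KD 6.27, 4.72 and 5.50 CPM. Every LaminB KD library was below every library of both other groups, and the log2 change against mock was -1.08 (SE 0.24, adjusted p = 0.00423).

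The same arrangement held for mRpL18, whose bacterial counterpart binds the smallest ribosomal RNA. Its values were 22.5, 23.9 and 17.3 CPM in mock, 17.3, 16.6 and 17.6 in AGO2 KD and 8.06, 9.81 and 13.2 CPM in LaminB KD. The log2 change in LaminB KD was -1.03 (SE 0.21, adjusted p = 0.00221). The fifth by size was mRpL42, found only in mitochondrial ribosomes. Mock libraries gave 10.3, 8.98 and 13.2 CPM, AGO2 KD libraries 7.49, 9.17 and 10.8 CPM, and LaminB KD libraries 5.49, 5.57 and 5.50 CPM, the last 3 lying close together. Its log2 change was -0.97 (SE 0.26, adjusted p = 0.0135).

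The smallest adjusted p among these genes was that of mRpL15, for a large subunit protein with a bacterial counterpart (log2 change -0.89, SE 0.16, adjusted p = 0.00104). Its level went from 35.0, 34.7 and 38.3 CPM in mock to 17.5, 24.3 and 16.5 CPM in LaminB KD, with 37.4, 31.7 and 29.4 CPM in AGO2 KD. The most abundant gene of the group that fell was mRpS30, at 136, 131 and 143 CPM in mock and 109, 108 and 96.5 CPM in LaminB KD, a smaller change in proportion (log2 -0.39, SE 0.08, adjusted p = 0.00345). The 1 gene called lower in both knockdowns was mRpL38, with 17.4, 17.4 and 20.2 CPM in LaminB KD against the mock values given above (log2 -0.53, SE 0.15, adjusted p = 0.0199).

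The remaining genes called lower in LaminB KD were mRpS14, mRpL27, mRpL46, mRpL52, mRpS10, mRpS22, mRpS18A, mRpL44, mRpL1, mRpS11, mRpL47, mRpL9 and mRpL3, with log2 changes from -0.94 for mRpS14 to -0.37 for mRpL3. The gene with the largest negative value of all, mRpL34 (-1.26, SE 0.79), was not called (adjusted p = 0.282). It had 3 to 14 reads per LaminB KD library and 9 to 33 per mock library, and the groups overlapped.

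**Figure D2:**
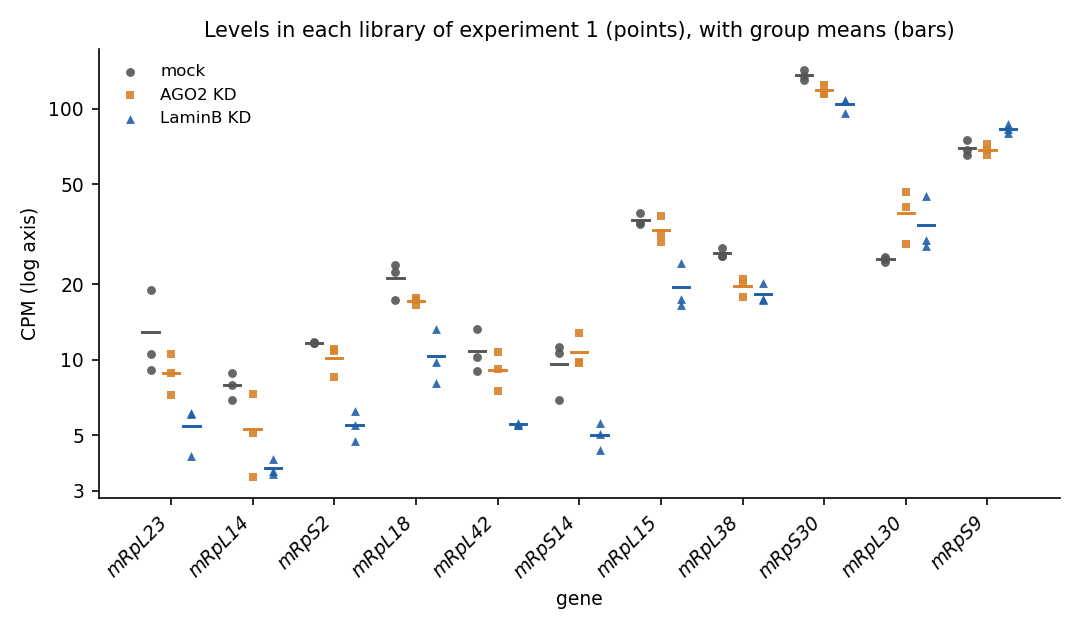
CPM (log axis) of 11 mitochondrial ribosomal protein genes in each of the 9 libraries of experiment 1, with group means as bars. In the first 9 genes every LaminB KD triangle lies below every mock circle, and for mRpS9, at the right, every LaminB KD triangle lies above the mock circles.

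The falls were spread over mRpL and mRpS genes and over both evolutionary classes. In LaminB KD 14 of 45 mRpL genes and 7 of 24 mRpS genes were lower, with medians of -0.34 and -0.39. These groups follow the symbols, so that mRpS30 is counted with the mRpS genes. Among genes whose proteins have a bacterial counterpart 14 of 42 were lower (median -0.38), and among those specific to mitochondrial ribosomes 6 of 26 (median -0.27). The calls lay on every chromosome arm counted: 2 of 11 tested genes on 2L, 3 of 11 on 2R, 3 of 15 on 3L, 8 of 21 on 3R and 5 of 11 on X. Falls were found at every level above the lowest, in 3 of 20 genes between 5 and 10 CPM, 8 of 24 between 10 and 20 CPM, 9 of 21 between 20 and 50 CPM, and 1 of 3 above that. In the same ranges 4.01%, 8.39%, 13.8% and 20.2% of all tested genes were lower.

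The single gene called higher in LaminB KD was mRpS9, for a small subunit protein with a bacterial counterpart, and it is also the single gene of the group longer than 10 kb. Its level was 68.7, 65.4 and 75.0 CPM in mock, 68.4, 72.4 and 65.5 in AGO2 KD and 79.9, 83.2 and 87.2 CPM in LaminB KD. The 3 LaminB KD values were above all others, by a small margin (log2 change 0.26, SE 0.09, adjusted p = 0.0573). The call was lost on leaving out mock 1, mock 2, LaminB KD 2 or LaminB KD 3 (adjusted p from 0.103 to 0.212).

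Gene length moved with the LaminB KD result over the whole table. Of all tested genes longer than 10 kb, 46.4% were higher and 2.52% lower in LaminB KD, while of those under 1 kb 12.6% were lower and of those from 1 to 2 kb 15.9%. Within the same length classes, 11 of 41 mitochondrial ribosomal protein genes under 1 kb (26.8%) and 9 of 26 from 1 to 2 kb (34.6%) were lower. Reads in genes over 10 kb made up 45.7% to 46.9% of the mock libraries and 50.0% to 50.8% of the LaminB KD libraries. With each library's counts corrected for its dependence on gene length and GC content, 14 of the 69 genes were lower (20.3%) and 2 higher, beside 1384 lower (17.0%) and 805 higher of all tested genes, where the uncorrected fit gave 1018 lower and 1356 higher. The median log2 change of the 69 became -0.23 against -0.06 for all tested genes, and that of mRpS9 became -0.024 (adjusted p = 0.884). The part of gene length in the uncorrected values was not otherwise tested.

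**Figure D3:**
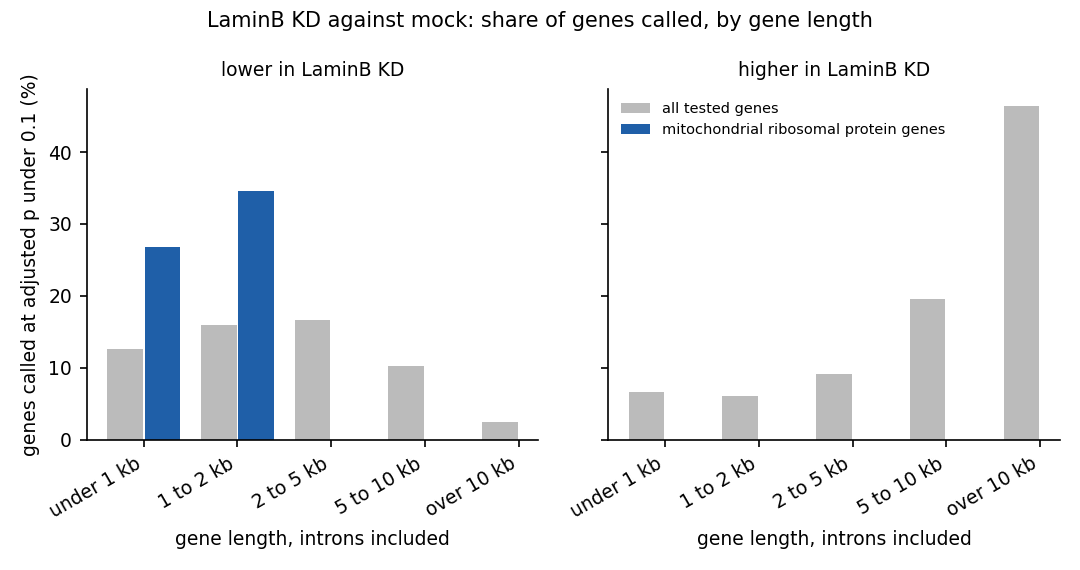
Percent of genes called lower (left) or higher (right) in LaminB KD against mock, by gene length, for all tested genes (grey) and for mitochondrial ribosomal protein genes (blue, drawn for the classes with at least 20 of them). The blue bars for lower calls stand at 26.8% and 34.6% beside grey bars of 12.6% and 15.9%, and the grey bar for higher calls reaches 46.4% over 10 kb.

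Of the 22 genes called in LaminB KD, 11 were called in each of the 15 other fits tried, which left out every library of the experiment in turn or changed the test, scaling, filter, length and GC correction, samples or block: mRpL14, mRpL15, mRpL18, mRpL23, mRpL38, mRpL42, mRpL46, mRpS2, mRpS14, mRpS22 and mRpS30. The number of genes called lower went from 13 without mock 2 (18.8%, against 8.55% of all tested genes) to 25 without LaminB KD 1 (36.2%, against 12.6%). All 21 genes called lower kept a negative value in those fits.

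Set directly against AGO2 KD, LaminB KD had 8 of the 69 genes lower (10.1% of all tested genes were) and 1 higher (10.2% of all tested genes were), with a median log2 difference of -0.23 against 0.01 for all tested genes. The largest was that of mRpS14, for a protein in the head of the small subunit, with 9.83, 9.70 and 12.7 CPM in AGO2 KD and 5.04, 4.36 and 5.61 CPM in LaminB KD. The groups were well apart, and its log2 difference was -1.10 (SE 0.27, adjusted p = 0.0125). Then came mRpS2 (-0.87), mRpL52 (-0.85), mRpL15 (-0.76) and mRpL19 (-0.74), followed by mRpL42, mRpL18 and mRpL9. For mRpL19, which has a bacterial counterpart, the AGO2 KD libraries gave 25.4, 24.2 and 30.6 CPM, the LaminB KD libraries 10.5, 18.5 and 19.2 CPM and the mock libraries 20.6, 20.4 and 22.5 CPM, so that it was not among the genes called against mock. The gene called higher was again mRpS9 (0.28, adjusted p = 0.0574), a call lost on leaving out any AGO2 KD library, LaminB KD 2 or LaminB KD 3 (adjusted p from 0.103 to 0.200). Without AGO2 KD 3, 5 genes were lower (7.25%, against 6.62% of all tested genes). With the length and GC correction 6 were lower (8.70%, against 13.4% of all tested genes) and the median was -0.12 against -0.03, so that the share lower was then below that of all tested genes.

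Since so many of these genes share a start region with a divergent neighbour, the neighbours were read as well. In 48 pairs both genes were tested. The neighbours had a median log2 change of -0.13 in LaminB KD, with 12 lower (25.0%, against 12.5% of all tested genes) and 2 higher. Of the 16 pairs whose mitochondrial ribosomal protein gene fell, the neighbour also fell in 4, was not called in 12 and rose in 0. The share of neighbours that fell was the same, 8 of 32 (25.0%), where the mitochondrial ribosomal protein gene was not called lower. The 4 were Mon1 beside mRpS2 (-0.76, adjusted p = 0.0403), Ns1 beside mRpS11 (-0.64, adjusted p = 0.00158), Snr1 beside mRpL44 (-0.50, adjusted p = 0.0162) and Art3 beside mRpS10 (-0.38, adjusted p = 0.0126). By contrast CG9004, which starts 24 bp from mRpL23, had 54.2 CPM in mock and 55.3 CPM in LaminB KD (log2 change 0.03, SE 0.12), and CtIP, 41 bp from mRpL15, had 63.2 and 59.8 CPM (-0.08, SE 0.12). Across the 48 pairs Pearson's r between the log2 changes of the partners was 0.08, a description over genes that share libraries.

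**Figure D4:**
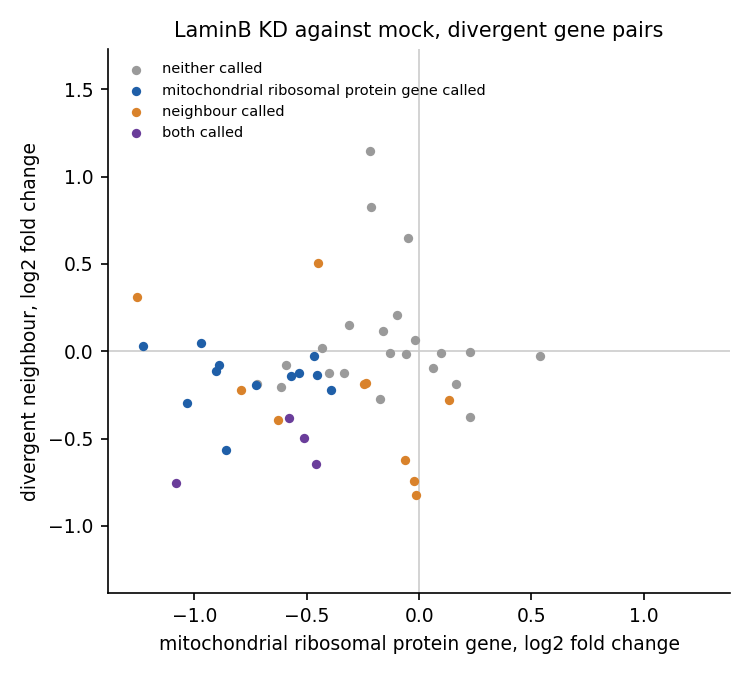
Log2 fold change in LaminB KD against mock of 48 mitochondrial ribosomal protein genes (x axis) and of the divergent coding gene that starts within 500 bp (y axis), 1 point per pair. The 12 blue points, pairs in which the mitochondrial ribosomal protein gene alone was called, lie left of 0 and mostly close to 0 on the y axis, and both genes were called in the 4 purple points.

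Promoters were read from 250 bases before to 50 bases after each gene's start and searched on both strands for 7 short motifs. The DRE, TATCGATA, bound by the factor DREF that drives many growth genes in Drosophila, was present in 15 of the 71 promoters (21.1%), against 9.24% of all coding genes and 14.9% of those tested. Among the 21 genes called lower in LaminB KD 1 carried it, mRpL3, and among the other 48 tested genes 14 did. The E-box CACGTG, the sequence that Myc with its partner Max recognises, was in 5 promoters (7.04%, against 4.17% of all coding genes and 4.44% of those tested): mRpL23, mRpL27, mRpS11 and mRpS14, all lower in LaminB KD, and mRpL16, which was not called. Those of mRpL27 and mRpS11 lie beyond the start of the divergent neighbour, inside CG15435 and Ns1. TATAAA was in 32 (45.1%, against 45.9% of all coding genes and 44.7% of those tested), in 4 of the 21 and 28 of the other 48. GGTCACAC was in 8 (11.3%, against 7.71% of all coding genes and 12.9% of those tested), in 2 of the 21 and 5 of the other 48. On the same 2 backgrounds, GAGAG was in 11 (15.5%, against 29.6% and 28.6%), in 4 of the 21 and 6 of the other 48. GCGCATGC was in 1 (1.41%, against 1.05% and 1.04%), in 0 of the 21 and 1 of the other 48. CCGGAAG was in 0 (against 1.09% and 0.918%). These counts describe letters in a window, not binding, and no test was made of them.

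The stretches below show the E-box of each of the 5 genes and the DRE of 4 of the 15, chosen because the former sits mostly in genes that fell and the latter mostly in genes that did not. They are read 5′ to 3′ on the gene's strand from the release 6 genome (dm6), with the motif in capitals. They lie at chr3L:2373686-2373715 (minus strand) for mRpL23, chr2L:4459768-4459797 (minus) for mRpL27, chr3R:17072636-17072665 (plus) for mRpS11, chrX:19480241-19480270 (minus) for mRpS14, chrX:1890128-1890157 (plus) for mRpL16, chrX:15761234-15761263 (plus) for mRpL3, chr2L:203760-203789 (plus) for mRpL10, chr3L:8956803-8956832 (plus) for mRpL12 and chr3L:264764-264793 (plus) for mRpL17.
mRpL23 E-box: tgttggacaaccCACGTGcttttacacggg
mRpL27 E-box: ttattagctaaaCACGTGacagatatatta
mRpS11 E-box: ttaaaacaagaaCACGTGaaaatagtcttc
mRpS14 E-box: cgcacactggcaCACGTGttcacgcgcttc
mRpL16 E-box: attattgtgttcCACGTGcaatatggcaca
mRpL3 DRE: aatatcgctgaTATCGATActgtggccgat
mRpL10 DRE: aaatatctggcTATCGATAagaatgaataa
mRpL12 DRE: ccctggctgttTATCGATAaactgctcaca
mRpL17 DRE: aagagtatcgcTATCGATAaatggtcgcca
In mRpL23 the E-box begins at the base after the gene's first annotated base, and in mRpL3, mRpL10 and mRpL17 the DRE begins 3, 8 and 4 bases before it, while in mRpL27 the E-box lies 147 bases upstream.

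Other components of mitochondrial gene expression were read in LaminB KD beside the same background, 12.5% of all tested genes lower and 16.7% higher, and no difference between the lists was tested. Of 3 further mitochondrial ribosomal proteins that carry other symbols, bonsai, tko and CRIF, 1 was lower, tko, whose protein is a small subunit component (-0.56, adjusted p = 0.0991). Among 15 mitochondrial aminoacyl-tRNA synthetases, which charge the tRNAs for this ribosome, AlaRS-m was lower (-0.54, adjusted p = 0.0679) and LeuRS-m higher (0.34, adjusted p = 0.0772). Of 8 tested mitochondrial translation factors 1 was lower, mRRF2, a ribosome recycling factor (-0.49, adjusted p = 0.0880). Of 10 genes for transcription and upkeep of mitochondrial DNA 1 was lower, TFAM, which packages that DNA (-0.31, adjusted p = 0.0852). None of the 14 tested genes encoded in mitochondrial DNA was called against mock in LaminB KD by edgeR, with 0 at an unadjusted p under 0.05 (34.6% of all tested genes were). Among the same 14 genes, mt:CoI (-0.49, adjusted p = 0.0620) and mt:CoIII (-0.36, adjusted p = 0.0373), for cytochrome oxidase subunits, were called lower in AGO2 KD. There 2.32% of all tested genes were lower. Both overlapped between groups. AGO2 KD against mock ran from 1170 to 2045 against 1962 to 2480 CPM for mt:CoI, and from 1870 to 2349 against 2346 to 2978 CPM for mt:CoIII.

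The cytosolic ribosomal protein genes serve the other translation system of the cell. In LaminB KD they too were often lower, 21 of 78 (26.9%, median -0.24) with 0 higher, beside 21 of 69 mitochondrial ribosomal protein genes (30.4%, median -0.37) and 12.5% of all tested genes. In AGO2 KD 0 were lower and 3 higher (median 0.19), where 2.32% of all tested genes were lower and 7.92% higher. The 3 were RpL7, RpS9 and RpL27, and each overlapped between groups. In si5UTR the called genes of this list were lower, led by RpL23 (-0.93, adjusted p = 0.0211), where 0.344% of all tested genes were lower. Between LaminB KD and AGO2 KD 51 were lower and 1 higher (median -0.44), where 8 of 69 mitochondrial ribosomal protein genes and 10.1% of all tested genes were lower. No test of the difference between these lists was made.

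Experiment 2 asked whether the second AGO2 siRNA and the 2 rescue constructs changed these genes, with 2 libraries a group. In si5UTR against mock 0 of 69 were higher and 0 lower (0.882% and 0.344% of all 8727 tested genes were). The median was -0.10, against 0 over all tested genes, and 72.5% of the values were negative, against 49.9%. There was 1 gene at an unadjusted p under 0.05, where 8.49% of all tested genes were. That gene was mRpL30, at 34.2 and 38.9 CPM in mock and 19.9 and 30.1 CPM in si5UTR (log2 change -0.54, SE 0.25, adjusted p = 0.564), the opposite sign to its change in AGO2 KD. The difference between its changes in AGO2 KD and in si5UTR, tested over the libraries of both experiments, was 1.17 (SE 0.31) and did not pass (adjusted p = 0.201), although it did without AGO2 KD 1 (adjusted p = 0.0345). In that test 0 of 69 genes differed in either direction (0.0534% of all 9357 tested genes were higher in AGO2 KD and 0.0214% lower). At an unadjusted p under 0.05 there were 2, where 8.45% of all tested genes were.

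Cells given wild type AGO2 with the siRNA had 0 of 69 genes called in either direction against mock (0.138% of all tested genes were higher and 0.0115% lower), with 2 at an unadjusted p under 0.05 (4.51% of all tested genes were). For si5UTR+V966M against mock the counts were also 0 and 0 (0.286% higher and 0.344% lower over all tested genes), with 3 at an unadjusted p under 0.05 (9.34% of all tested genes were). In both comparisons the smallest p belonged to mRpS23, a protein found only in mitochondrial ribosomes. It stood at 16.3 and 22.0 CPM in mock, 24.1 and 27.0 in si5UTR, 28.3 and 37.4 in si5UTR+AGO2 and 36.9 and 28.5 in si5UTR+V966M, above mock in every treated library. The log2 change was 0.78 (SE 0.27, adjusted p = 0.748) with wild type AGO2 and 0.77 (SE 0.27, adjusted p = 0.301) with the mutant.

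Between the treated groups of experiment 2 the calls were 0 as well. In si5UTR+AGO2 against si5UTR (0.103% of all tested genes higher and 0.527% lower) 1 of 69 genes had an unadjusted p under 0.05, where 6.41% of all tested genes did. It was mRpS6, for a small subunit protein with a bacterial counterpart, at 11.5 and 8.93 CPM in si5UTR and 5.0 and 3.59 CPM in si5UTR+AGO2 (log2 -1.25, SE 0.54, adjusted p = 0.686). In si5UTR+V966M against si5UTR (0.103% higher and 0.16% lower over all) 5 of 69 had an unadjusted p under 0.05, where 8.53% of all tested genes did. They were led by mRpL37, at 51.7 and 55.1 CPM in si5UTR and 76.5 and 74.2 CPM in si5UTR+V966M (0.50, SE 0.18, adjusted p = 0.438). In this last comparison 54 of the 69 values were positive, with 21.7% negative against 51.5% of all tested genes. The median was 0.22, against -0.01 over all tested genes, and in 18 genes both si5UTR+V966M libraries were above both si5UTR libraries (26.1%, against 17.7% of all tested genes). With the length and GC correction that median was 0.12, against 0 over all tested genes. Coding genes under 2 kb held 8.81% and 8.86% of the reads in si5UTR and 9.71% and 10.1% in si5UTR+V966M, and the part of this in the result was not otherwise tested. In si5UTR+V966M against si5UTR+AGO2 (0.0802% higher and 0.0802% lower over all) 2 of 69 genes had an unadjusted p under 0.05, where 8.83% of all tested genes did. They were led by mRpL33, which has a bacterial counterpart, at 6.42 and 6.01 CPM with wild type AGO2 and 20.7 and 11.4 CPM with the mutant (1.37, SE 0.47, adjusted p = 0.353). DESeq2 also called 0 of these genes in each comparison of experiment 2.

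In experiment 3, on Dcr-2 depletion, no gene of the group was called. There were 0 of 69 genes higher and 0 lower (1.38% and 0.634% of all 7733 tested genes were), 1 at an unadjusted p under 0.05 (12.6% of all tested genes were) and none called by DESeq2. The median log2 change was 0.03 against 0.01. The smallest p was that of mRpS22, found only in mitochondrial ribosomes, at 32.2, 39.7 and 41.1 CPM in mock and 30.6, 21.9 and 31.0 CPM in Dcr-2 KD, which did not overlap (log2 -0.44, SE 0.19, adjusted p = 0.351). In LaminB KD the same gene had fallen (log2 -0.57, SE 0.16, adjusted p = 0.0203), from 27.7, 31.8 and 28.4 CPM to 18.4, 20.2 and 20.5 CPM. Over the 69 genes, the groups did not overlap in 5 that were lower in Dcr-2 KD (7.25%, against 9.65% of all tested genes). In 1 gene Dcr-2 KD was wholly higher (1.45%, against 9.54%). Like mRpS22, mRpS10 and mRpS18A were called lower in LaminB KD and lay below mock in every Dcr-2 KD library. The genes mRpL14 and mRpS14, also called lower in LaminB KD, overlapped between mock and Dcr-2 KD. The first gave 6.32, 6.93 and 11.3 CPM in mock and 3.58, 3.70 and 7.79 CPM in Dcr-2 KD, and the other gave 9.79, 8.84 and 7.13 CPM and then 9.84, 11.4 and 4.08 CPM.

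Summed over the 71 genes, the level in experiment 1 was lowest in LaminB KD. The sum was 1326, 1338 and 1297 CPM in mock of experiment 1, 1197, 1251 and 1251 CPM in AGO2 KD and 1153, 1056 and 1048 CPM in LaminB KD, and the 3 groups did not overlap. The means were 1321 ± 21.1, 1233 ± 30.8 and 1086 ± 58.1 CPM (SD, n = 3 each). In experiment 2 the sums were 1509 and 1564 CPM in mock, 1414 and 1463 CPM in si5UTR, 1529 and 1587 CPM in si5UTR+AGO2 and 1666 and 1650 CPM in si5UTR+V966M, the lowest group being si5UTR and the highest si5UTR+V966M. In experiment 3 mock gave 1302, 1487 and 1435 CPM and Dcr-2 KD 1414, 1423 and 1474 CPM, which overlapped. Reads from genes encoded in mitochondrial DNA made up 0.700% to 0.871% of the mock libraries of experiment 1, 0.502% to 0.676% of AGO2 KD and 0.607% to 0.833% of LaminB KD.

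**Figure D5:**
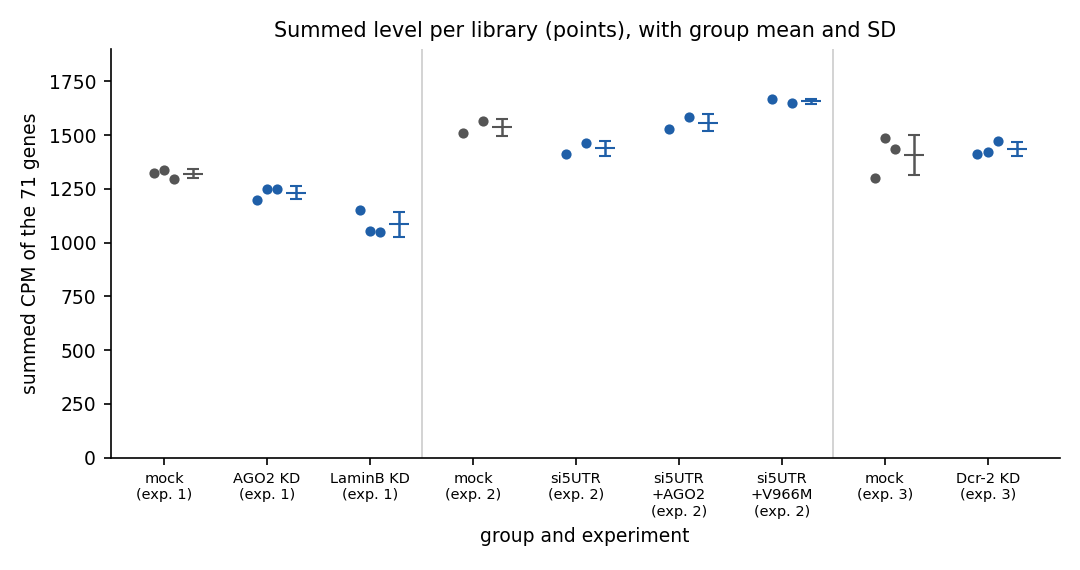
Summed CPM of the 71 mitochondrial ribosomal protein genes in each of the 23 libraries (points), with the mean and SD of each group beside them. The LaminB KD libraries lie at 1048 to 1153 CPM, below the 1297 to 1338 CPM of their mock libraries, and levels are comparable only within an experiment.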

How the data were processed

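The authors trimmed 50 bp single-end reads with cutadapt 1.10, mapped them to dm6 with HISAT2 2.0.4 and counted them with featureCounts 1.5.0-p3, stranded, over whole genes of FlyBase release 6.11. What they deposited is the raw count of reads in each gene. All columns were matched to a sample (0 were left over), and experiments came from the deposited design table. Symbols came from the name table and gene models from the release 6 reference (17464 of 17659 identifiers matched). Members and lists were chosen with earlier results of these data known.

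Each experiment was fitted separately in R 4.3.3 with edgeR 4.0.16: low counts removed by filterByExpr, TMM scaling, glmQLFit and glmQLFTest with treatment as the only term, and Benjamini-Hochberg adjustment over all genes tested. The SE is the absolute log2 change over the root of F. CPM used the TMM library sizes. The study tested at an adjusted p under 0.1, kept here. The contrast between the AGO2 KD and si5UTR effects was fitted over experiments 1 and 2. The fits were tested on simulated data. Read numbers of single genes cover counting error only, since the libraries carry no molecular identifiers.

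Named genes were the knockdown targets, up to 5 called rises and falls per comparison by size, members called against mock in more than 1 knockdown, the 3 highest and 3 lowest per kb, members that failed the filter, the smallest p where nothing was called, and up to 3 called genes per other list and comparison. Others named (mRpL15, mRpS30, mRpS14, mRpL34, mRpS10 and mRpS18A in Dcr-2 KD, the neighbours and the motif genes) were chosen after their values were seen. Alternatives were DESeq2 1.42.0, a fit without the other groups, RLE factors, each library left out in turn, a stricter adjusted p under 0.05, no filter, a replicate block and, chosen after seeing the data, a length and GC correction and a block by the design table's numbers.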

Additional observations from a re-analysis of the deposited data

Results flagged for a closer look

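Over the 8 mock libraries of the 3 experiments, the levels of 23 series (the named genes and the summed level) were searched for a single library set apart from the other 7 by a gap that is large for its range (Dixon's ratio above 0.526). If chance alone marks about 1 in 20 series, 1.15 of 23 would be marked, and 3 were. The 23 include mRpL13 and mRpL53, which had 0 reads in every library and could not be marked. Others were chosen partly by values in these mock libraries, so that the 1 in 20 may not hold for them. The mock libraries come from different experiments, so a gap can also lie between experiments. The gene mRpL23 was highest in mock 2 of experiment 1, at 18.9 CPM, where the next library had 12.4 CPM and the median was 10.7 CPM. That library enters the comparisons of mRpL23 in AGO2 KD and LaminB KD, and the LaminB KD change without it is given with that gene. The gene mRpL38 was highest in mock 8 of experiment 2, at 35.8 CPM, with the next at 30.2 CPM. The gene mRpL48 was highest in mock 1 of experiment 1, at 7.09 CPM, with the next at 4.88 CPM.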

How the results depend on the processing

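In AGO2 KD against mock 0 were lower with DESeq2, RLE factors, no filter, the length and GC correction or an adjusted p under 0.05. With only the groups compared 3 were lower (4.35%, against 3.84% of all tested genes), while 0 were higher at an adjusted p under 0.05. In LaminB KD against mock 2 were higher with RLE factors, the length and GC correction or only the groups compared (9.89% to 16.8% of all tested genes were). At an adjusted p under 0.05, 0 were higher and 12 lower. With DESeq2 16 were lower, beside 923 of all genes. With only the groups compared 14 were lower (20.3%, against 12.5% of all tested genes), as with the length and GC correction (20.3%, against 17.0%). The value of mRpS9 turned to -0.024 under that correction. In LaminB KD against AGO2 KD 0 were higher with no filter or at an adjusted p under 0.05. With the length and GC correction the calls over all tested genes went from 645 higher and 189 lower to 429 and 421 in AGO2 KD, and from 832 and 821 to 609 and 1089 between LaminB KD and AGO2 KD. With no filter the difference between AGO2 KD and si5UTR was called for 1 gene, mRpL30.

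Leaving out each library in turn gave 0 to 1 higher and 0 to 2 lower in AGO2 KD, 0 to 2 higher and 13 to 25 lower in LaminB KD, and 0 to 1 higher and 5 to 11 lower between them. Without LaminB KD 1 there were 2 lower in AGO2 KD (2.90%, against 3.50% of all tested genes) and 11 lower between them (15.9%, against 9.60%). In experiment 2 it gave 0 to 1 higher in si5UTR against mock (1 without mock 8), 0 to 3 in si5UTR+V966M against mock (1 without mock 8, 3 without si5UTR+V966M 3), 0 to 1 in si5UTR+V966M against si5UTR (1 without si5UTR 2), 0 to 1 in si5UTR+V966M against si5UTR+AGO2 (1 without si5UTR+V966M 3), and 0 to 1 for the difference between AGO2 KD and si5UTR (1 without AGO2 KD 1). Where a group of experiment 2 then had 1 library, its spread was taken from the other groups.

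Between groups of experiment 1, deviations of same-numbered libraries correlated with r from -0.17 to 0.06, and those of others from -0.12 to 0.18. Between AGO2 KD and LaminB KD the ranges were 0.04 to 0.06 and -0.06 to 0.03. With 3 libraries a group, these values cannot decide whether the numbers pair the libraries. With a replicate block 0 genes were lower and 1 higher in AGO2 KD. In LaminB KD 19 were then lower (27.5%, against 12.1% of all tested genes) and 1 higher. Between them 9 were lower (13.0%, against 9.63%) and 1 higher. With the block si5UTR+V966M against si5UTR and, by the design table's numbers, Dcr-2 KD gave 0 calls. The causes of these differences were not tested.

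Depth limits the least abundant genes. At a median of 103 reads per gene in the mock libraries of experiment 3 and with 2 libraries a group in experiment 2, small changes were not detectable, and a count of 0 there does not show that these genes stayed the same.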
